A study of Mus musculus with 16 samples.

Results

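Tnf, the interleukin-1 (IL-1) family and a few other macrophage cytokines were followed across wild-type (WT) and TLR3-knockout (TLR3-KO) mice with and without Klebsiella pneumonia. The 10 genes are Tnf, Il1a, Il1b, Il1rn, Il1r2, Il6, Il10, Il12b, Il18 and Il23a, taken by their symbols from a count table of 23159 gene symbols. Of the 10, 9 passed the filter on low counts and were among the 12455 symbols tested, while Il10 did not. RNA came from macrophages of bronchoalveolar lavage, a wash of the airways, and was sequenced as mRNA libraries. The 4 groups hold 4 libraries each: WT control, WT injured, TLR3-KO control and TLR3-KO injured. All mice are labelled as WT or as lacking TLR3, the endosomal receptor for double-stranded RNA, with no strain or age given here. The series text counts 15 samples, but 16 were given and used. The protocol describes an inoculum of 500 CFU of Klebsiella pneumoniae, or saline, delivered deep into the hypopharynx. Libraries titled injured carry pneumonia as their treatment, and controls are labelled as having had no treatment. Neither the time after infection nor whether each library came from its own mouse was given in the sources used here. The p-values therefore measure the spread between libraries, which may be technical.

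TNF and the IL-1 cytokines are alarm signals that macrophages release when pattern recognition receptors sense a microbe. TNF is made as a membrane protein and shed by the protease ADAM17, whereas IL-1β and IL-18 are made as inactive precursors that caspase-1 cuts. The IL-1 system carries its own brakes: Il1rn encodes a receptor antagonist that competes with IL-1α and IL-1β, and Il1r2 a decoy receptor that binds them without signalling. The mRNAs of Tnf, Il6 and several others are short-lived, and their transcription depends on factors such as NF-kB, AP-1 and C/EBP.

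Total counts per library ranged from 29667102 to 59640251. Tlr3 was counted at 2.18 to 4.53 CPM (counts scaled to library size) in the 8 WT libraries and at 0.274 to 0.717 CPM in the 8 TLR3-KO libraries, without overlap. The summed CPM of 17 alveolar macrophage markers found in the table (of 20 listed) was 29600 to 37600 over all 16 libraries, and none of the 17 was at 0 in any group. The controls were not uniform. Replicates 1 and 2 stand apart from replicates 3 and 4 in both genotypes, a split that was seen in these data and that no label names, so its values are given as a description. TLR3-KO controls 1, 2 and 3 also held Xist, an RNA of female cells, at 42.3, 31.6 and 20.3 CPM, against at most 0.23 CPM in each of the other libraries. The title of the series names male mice. The summed CPM of Xist and Y-linked genes, 5 in all, was 43.1, 32.8, 43.5 and 169 in TLR3-KO controls 1 to 4 and 163 to 235 in the other groups. Control 3 thus held Y-linked RNA beside Xist. In comparisons that use the TLR3-KO controls, this difference cannot be told apart from genotype or pneumonia, and its part was not tested.

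The promoters of Tnf, Il1a, Il1b and Il6 are shown because the first 3 were correlated across the control libraries, while Il6 was lower in TLR3-KO controls 1 and 2 than in 3 and 4, opposite to Tnf and Il1a. Each run is the 250 bases before the annotated start, 5′ to 3′ on the strand of the gene, from RefSeq on GRCm38.p6, the assembly whose coordinates mm10 shares. Tnf is chr17:35202008-35202257 on the minus strand, Il1a chr2:129309973-129310222 minus, Il1b chr2:129371140-129371389 minus and Il6 chr5:30012864-30013113 plus. Capitals mark matches to the TATA box letters TATAAA on the gene's strand, and to AP-1 (TGANTCA), C/EBP (TTGNGCAA) and the NF-kB consensus on either strand.
Tnf: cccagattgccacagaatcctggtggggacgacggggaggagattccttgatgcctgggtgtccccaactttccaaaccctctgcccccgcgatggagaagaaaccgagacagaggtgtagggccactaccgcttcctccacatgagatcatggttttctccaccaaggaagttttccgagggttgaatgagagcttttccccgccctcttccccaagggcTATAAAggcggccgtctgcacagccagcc
Il1a: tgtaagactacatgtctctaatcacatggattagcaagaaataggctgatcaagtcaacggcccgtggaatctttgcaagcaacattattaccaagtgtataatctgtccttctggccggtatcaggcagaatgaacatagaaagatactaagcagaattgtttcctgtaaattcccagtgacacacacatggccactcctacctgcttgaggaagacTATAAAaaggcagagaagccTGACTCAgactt
Il1b: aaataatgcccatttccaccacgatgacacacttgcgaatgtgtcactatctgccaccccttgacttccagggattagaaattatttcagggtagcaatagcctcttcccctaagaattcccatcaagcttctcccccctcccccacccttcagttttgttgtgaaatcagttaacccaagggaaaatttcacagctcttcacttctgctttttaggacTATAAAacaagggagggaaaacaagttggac
Il6: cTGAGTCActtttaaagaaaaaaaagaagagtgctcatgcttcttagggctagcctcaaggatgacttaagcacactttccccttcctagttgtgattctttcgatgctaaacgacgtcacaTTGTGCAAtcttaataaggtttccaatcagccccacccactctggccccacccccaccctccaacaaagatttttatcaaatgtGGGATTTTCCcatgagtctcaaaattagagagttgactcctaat
Tnf, Il1a and Il1b each held TATAAA close to the start, with its first base at -29, -32 and -31, and these were the 3 genes with a match among the 8 members with a promoter entry. Of all 32851 promoter windows of this length, 7.59% held TATAAA. The second run of capitals for Il1a is an AP-1 match at -12, a motif that is its own reverse complement and that 6.75% of all windows held. Il6 held AP-1 at -249, C/EBP at -128 (2.61% of all windows) and the NF-kB consensus at -44 (3.9% of all windows). Il1rn held an AP-1 match at -141 in the first of its 3 promoter entries, and the windows of Il1r2, Il12b and Il18 held none of these motifs. No member's window matched CRE (TGACGTCA) or the ISRE core (GAAANNGAA), both searched on either strand and held by 1.55% and 7.13% of all windows. A match is a description of letters and not a measured binding site. Il10 and Il23a are named only.

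In the GENCODE annotation of mm10, Tnf lies on chromosome 17 from 35199381 to 35202007, on the minus strand. Il1a (129299610 to 129309972) and Il1b (129364570 to 129371139) lie near each other on chromosome 2, both on the minus strand, and Il1rn (24336853 to 24351494) is on the plus strand of the same chromosome. Il1r2 spans 40074079 to 40125231 on chromosome 1, and Il18 spans 50554827 to 50581840 on chromosome 9. Il6 is on chromosome 5 (30013114 to 30019981), Il12b on chromosome 11 (44400063 to 44414033), Il23a on chromosome 10 (128296139 to 128298752) and Il10 on chromosome 1 (131019845 to 131024974). Levels were divided by the length of all annotated exons of a gene, with overlapping exons merged. This length was 5535 bases for Il1rn and 1031 for Il18, and a single transcript can be shorter, so the order depends on it. The mean level over the 16 libraries was 222 CPM per kb for Il18, 142 for Il1rn, 119 for Il1a, 117 for Tnf and 54 for Il1b. The other members were far lower, at 6.01 CPM per kb for Il1r2, 0.588 for Il23a, 0.378 for Il6, 0.375 for Il12b and 0.0356 for Il10. Neighbours in this order were not all separate: Il18 was above Il1rn in 14 of 16 libraries, Il1rn above Il1a in 9, Il1a above Tnf in 10, Tnf above Il1b in 15, Il23a above Il6 in 10 and Il6 above Il12b in 7. Il1b was above Il1r2, Il1r2 above Il23a and Il12b above Il10 in 16 of 16. Lavage macrophages in every group thus held Il18, Il1rn, Il1a and Tnf as abundant cytokine mRNAs and little Il6, Il12b or Il10.

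None of the 9 tested members changed in any of the 6 comparisons at an adjusted p of 0.05 (edgeR's quasi-likelihood test with Benjamini-Hochberg adjustment over 12455 genes). At an unadjusted p under 0.05 there were 1 member in WT pneumonia, 2 in TLR3-KO pneumonia, 3 between control genotypes, 1 between injured genotypes, 0 for the difference of the pneumonia responses and 1 for pneumonia averaged over both genotypes. The matching shares of all genes were 10.7%, 24%, 19.9%, 16.1%, 17.8% and 16.4%. The share of all genes called was 0.0161% for WT injured against WT control, 1.54% for TLR3-KO injured against TLR3-KO control, 0.699% for TLR3-KO against WT controls and 0.618% for TLR3-KO against WT injured. It was 0% for the difference of the pneumonia responses and 2.34% for pneumonia averaged over both genotypes. With DESeq2, 1 member was called for the averaged pneumonia response, which was Il1r2, and none in the other 5 comparisons. With so few genes called in all, 0 of 9 is not a result about the cytokines.

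Tnf, which acts early in inflammation, varied widely among controls that carry the same label. It was counted at 489, 384, 59.9 and 93.9 CPM in the WT controls 1 to 4, and in WT injured libraries 1 to 4 at 246, 163, 183 and 196 CPM (257 ± 213 against 197 ± 35.3, SD, n = 4 each). The injured libraries all fell in the gap between the high and the low controls. In TLR3-KO controls the values were 301, 186, 48.6 and 122 CPM, and in TLR3-KO injured libraries 181, 120, 123 and 163 CPM (164 ± 107 against 147 ± 30.2, n = 4 each). The groups overlapped in both genotypes. The coefficient of variation was 82.8% and 65% in the 2 control groups against 17.9% and 20.6% in the injured groups. The log2 fold change of injured over control was -0.55 (SE 0.58, adjusted p = 0.758) in WT and -0.26 (SE 0.58, adjusted p = 0.797) in TLR3-KO by edgeR.

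Il1a, which encodes the IL-1 form that also acts as an alarmin of damaged cells, followed Tnf. Its values were 426, 351, 76.7 and 129 CPM in the WT controls and 399, 247, 312 and 224 CPM in WT injured libraries. In TLR3-KO controls it was counted at 234, 212, 58.7 and 109 CPM and in TLR3-KO injured libraries at 276, 204, 230 and 278 CPM. Here too the injured values lay closer together than the control values, and the groups overlapped. The log2 fold change was 0.11 (SE 0.49, adjusted p = 0.946) in WT and 0.59 (SE 0.49, adjusted p = 0.458) in TLR3-KO by edgeR.

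Il1b, the secreted IL-1 form, was counted at 147, 136, 23.2 and 47.5 CPM in the WT controls and at 88.2, 104, 214 and 81 CPM in WT injured libraries. Its WT groups overlapped, and WT injured 3 was the highest of all 16 libraries. In TLR3-KO controls it was steady at 69.2, 59, 51.3 and 73.4 CPM, and in TLR3-KO injured libraries it was counted at 196, 80.4, 92.8 and 185 CPM. All 4 TLR3-KO injured values were above all 4 control values (139 ± 60.3 against 63.2 ± 9.98 CPM, SD, n = 4 each). The log2 fold change was 1.07 (SE 0.49, adjusted p = 0.203) in TLR3-KO and 0.30 (SE 0.49, adjusted p = 0.851) in WT, and the difference between the genotypes' responses did not pass the test either (adjusted p = 0.523, edgeR).

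Il1r2, the decoy receptor, had the lowest p-value of the members in the averaged pneumonia response. It was counted at 9.76, 6.65, 2.39 and 3.78 CPM in the WT controls and at 8.36, 14.4, 20.8 and 10.8 CPM in WT injured libraries, with injured 1 below control 1. In TLR3-KO controls it was counted at 10.6, 8.76, 7.8 and 3.52 CPM and in TLR3-KO injured libraries at 26.3, 11.6, 10.7 and 27.2 CPM, without overlap. The log2 fold change was 1.11 (SE 0.47, adjusted p = 0.416) in WT and 1.22 (SE 0.47, adjusted p = 0.143) in TLR3-KO, and averaged over both genotypes it was 1.16 (SE 0.33, adjusted p = 0.0763, edgeR). DESeq2 gave 1.16 with an adjusted p of 0.00967 for the average, and without WT control 1 edgeR gave 1.38 with 0.0483. The averaged value was above 0 in each of the 26 alternatives, where it ranged from 0.70 to 1.91 and the adjusted p from 0.00334 to 0.154.

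Il1b and Il1r2 were thus the members whose TLR3-KO injured and control libraries did not overlap, 2 of 9, both higher after pneumonia. Among all genes tested, 14.3% had no overlap in that comparison in either direction. No member was without overlap in WT pneumonia, where 4.51% of genes were.

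**Figure D1:**
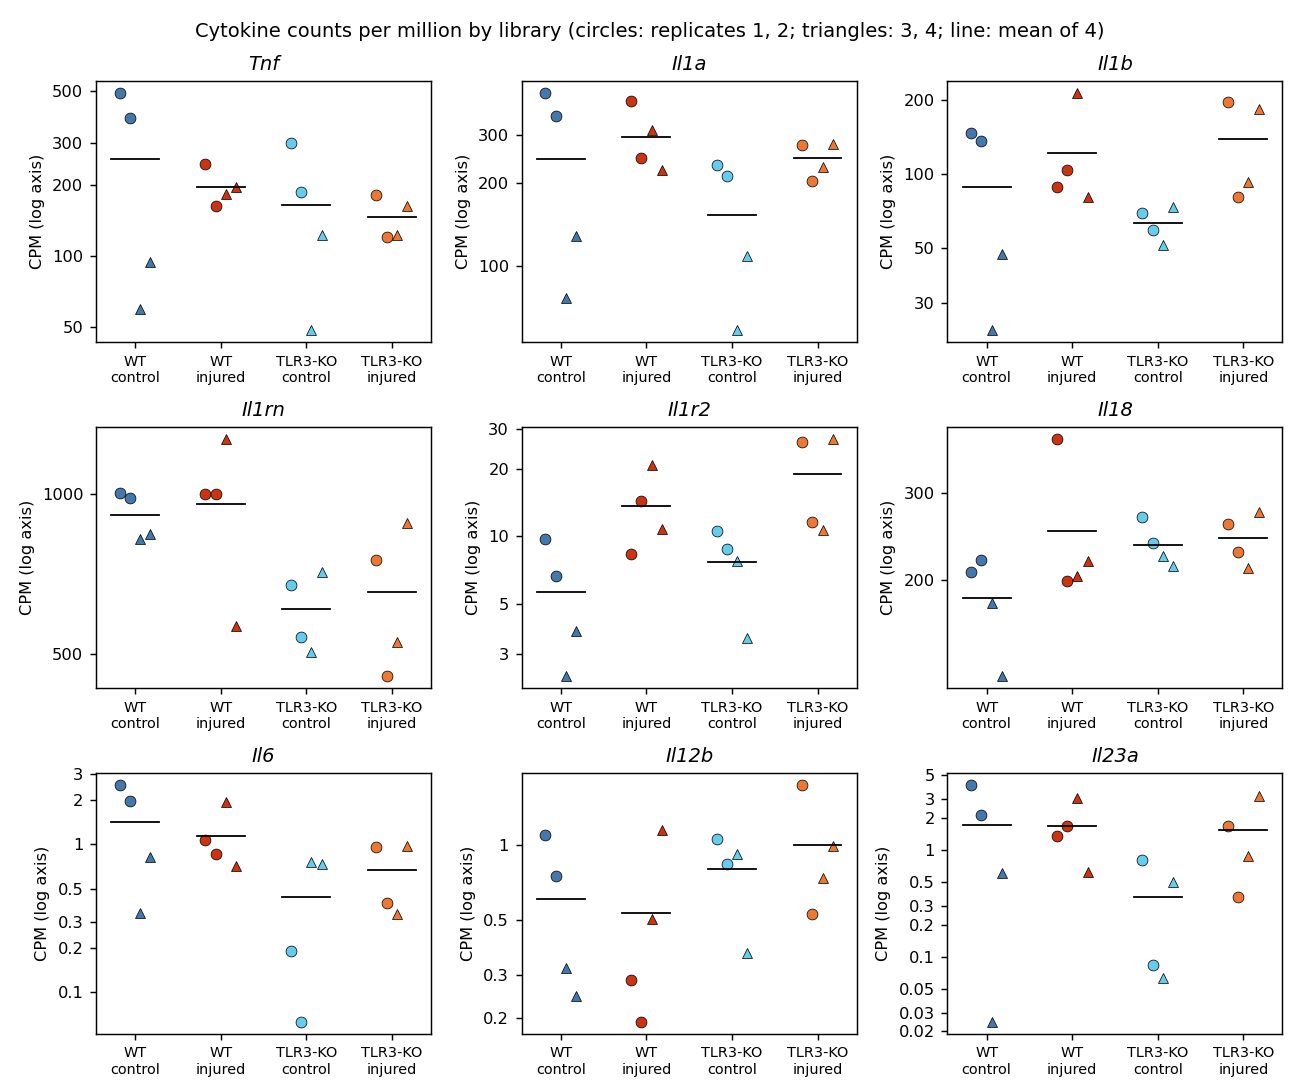
CPM on a log axis for the 9 members that passed the filter, in the 4 groups, with each library as 1 point (circles for replicates 1 and 2, triangles for 3 and 4) and a line at the mean of 4. In WT controls the circles lie above the triangles in all 9 panels, and the Tnf and Il1a values of injured libraries lie closer together than those of controls.

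Neutrophils can enter lavage fluid in pneumonia and are known to express Il1b and Il1r2. The summed level of their markers was higher in the injured groups along with these 2 genes, with overlap in WT and not library by library. The list holds 22 markers, of which 20 are in the table, and neither cytokine gene is among them. Their summed CPM was 47.6 to 85.3 in WT controls, 82.8 to 294 in WT injured, 64.1 to 99.8 in TLR3-KO controls and 117 to 204 in TLR3-KO injured libraries. S100a8, which encodes a subunit of calprotectin, was counted at 3.49 to 10.3 CPM in the WT controls and 14.4 to 52.5 CPM in WT injured libraries, and at 4.29 to 13.7 and 6.3 to 25.7 CPM in TLR3-KO. The markers Elane, Prtn3 and Stfa3 were at 0 in all groups. Not every marker rose: Mpo was at 0 in both injured groups and at most 0.11 CPM in the controls, and Camp was at 0 in WT injured libraries. A sum gives most weight to the markers with the highest counts. The library with the highest neutrophil sum, WT injured 3, also had the highest Il1b, and the TLR3-KO injured libraries 1 and 4, at 202 and 204 CPM of markers, had the highest Il1r2. WT injured 2 did not follow this order: its marker sum of 206 CPM was the second highest of the 16, while its Il1r2 was 14.4 CPM and its Il1b 104 CPM. The part of neutrophil RNA in the Il1b and Il1r2 levels was not tested, and in bulk RNA more cells of a type and more RNA per cell cannot be told apart.

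**Figure D2:**
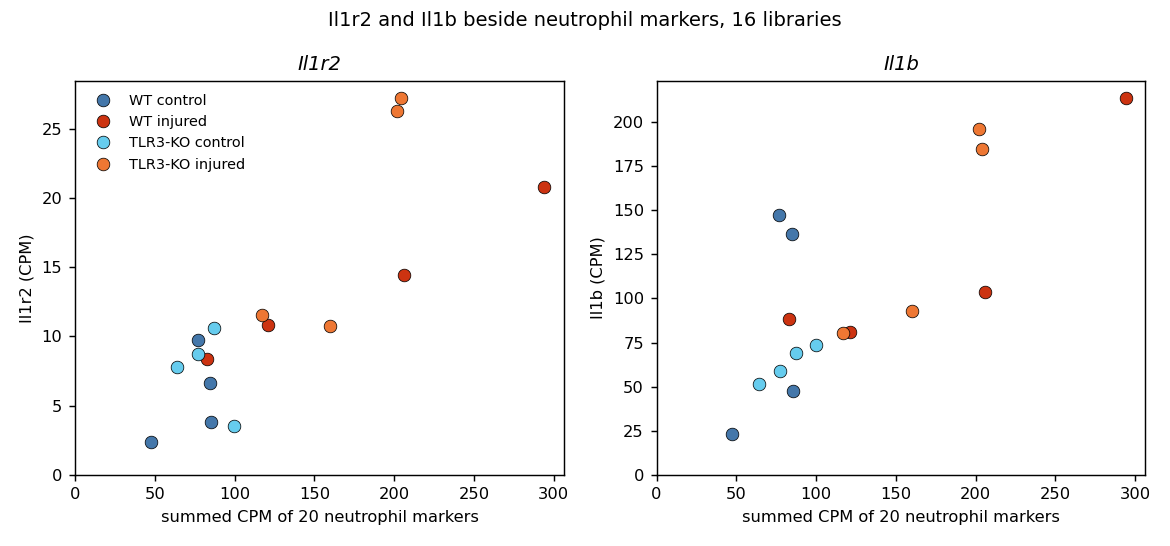
Il1r2 (left) and Il1b (right) in CPM against the summed CPM of 20 neutrophil markers, with 1 point per library for 16 libraries coloured by group. The points of TLR3-KO injured libraries 1 and 4 and of WT injured 3 lie at the upper right of both panels, WT injured 2 lies lower at a marker sum of 206 CPM, and WT controls 1 and 2 have high Il1b at marker sums of 76.7 and 84.8 CPM.

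Il1rn, the receptor antagonist, had the highest CPM of the members, without scaling for length, and its control genotypes did not overlap, though the difference did not pass the test. The level was 1007, 986, 825 and 842 CPM in the WT controls and 675, 537, 504 and 713 CPM in the TLR3-KO controls (915 ± 94.8 against 607 ± 102, SD, n = 4 each). All 4 TLR3-KO controls were below all 4 WT controls, a lack of overlap found in 8.13% of all genes tested. In injured libraries it was counted at 1002, 1002, 1273 and 565 CPM in WT and at 753, 454, 528 and 883 CPM in TLR3-KO, which overlapped at the low WT library 4. No member was without overlap between injured genotypes, where 12.3% of genes were. The log2 difference of TLR3-KO from WT was -0.67 (SE 0.23, adjusted p = 0.142) in controls and -0.58 (SE 0.23, adjusted p = 0.249) in injured libraries by edgeR. It was below 0 in each of the 19 and 16 alternatives. The pneumonia fold changes of Il1rn were -0.06 (SE 0.23, adjusted p = 0.945) in WT and 0.04 (SE 0.23, adjusted p = 0.924) in TLR3-KO on the log2 scale. TLR3-KO controls 1 to 3 are those that hold Xist. In control 4, which holds 0.23 CPM of it, Il1rn was 713 CPM, the highest of the 4, beside 825 CPM in the lowest WT control. With 1 such library, genotype and the Xist difference cannot be told apart in the controls, and their parts were not tested.

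Il18, a relative of IL-1 that macrophages hold ready as a precursor, had a coefficient of variation of 10% to 35.7% within groups. It was counted at 208, 220, 180 and 128 CPM in the WT controls and at 387, 199, 204 and 219 CPM in WT injured libraries. In TLR3-KO it was counted at 268, 238, 224 and 214 CPM in controls and 260, 228, 212 and 275 CPM in injured libraries. The groups overlapped, with WT injured 1 far above the others. The log2 fold change in WT was 0.33 (SE 0.23, adjusted p = 0.607, edgeR).

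Il6, which encodes the cytokine that drives the acute phase response, was low, and TLR3-KO controls 1 and 2 rested on 8 and 3 reads. Its values were 2.53, 1.97, 0.345 and 0.822 CPM in the WT controls, from 151, 86, 14 and 30 reads. In TLR3-KO controls it was counted at 0.19, 0.0631, 0.759 and 0.736 CPM, from 8, 3, 36 and 32 reads. Injured libraries held 0.718 to 1.94 CPM in WT and 0.337 to 0.974 CPM in TLR3-KO. The order of the controls was opposite in the genotypes, with replicates 1 and 2 above 3 and 4 in WT and below them in TLR3-KO. The log2 difference between control genotypes was -1.84 (SE 0.68, adjusted p = 0.166, edgeR). With controls 1 and 2 only it was -4.25, and with controls 3 and 4 only it was 0.31.

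Il23a, which encodes the IL-23 subunit that pairs with the product of Il12b, was counted at 4.11, 2.12, 0.0246 and 0.603 CPM in the WT controls, from 245, 93, 1 and 22 reads. The WT injured libraries gave 1.34, 1.69, 3.06 and 0.624 CPM. In TLR3-KO it was counted at 0.806, 0.0842, 0.0632 and 0.506 CPM in controls and at 1.67, 0.359, 0.876 and 3.2 CPM in injured libraries. Its groups overlapped in both genotypes, and the WT controls alone spanned a 167-fold range that ends at a single read. The log2 fold change in TLR3-KO pneumonia was 2.00 (SE 1.01, adjusted p = 0.237), and between control genotypes -2.37 (SE 1.01, adjusted p = 0.216, edgeR).

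Il12b, which encodes the subunit shared by IL-12 and IL-23, was counted at 0.247 to 1.11 CPM in the WT controls and at 0.193 to 1.15 CPM in WT injured libraries. In TLR3-KO the ranges were 0.368 to 1.07 and 0.529 to 1.76 CPM. The groups overlapped in all comparisons, and the lowest library rested on 7 reads. Il10, the anti-inflammatory cytokine of the set, had 0, 0, 0 and 3 reads in WT controls, 1, 3, 9 and 4 in WT injured, 0, 1, 1 and 4 in TLR3-KO controls and 2, 0, 0 and 4 in TLR3-KO injured libraries. The mean was 0.0206 CPM in the WT controls and 0.0975 CPM in WT injured libraries (two-sided exact permutation p = 0.0857, where the smallest p for 4 against 4 is 0.0286). In TLR3-KO the same test gave an exact p of 0.914, and between genotypes 0.543 in controls and 0.2 in injured libraries. At this depth, where 3 reads of the WT control libraries stand for 0.0503 to 0.0822 CPM, a difference in Il10 was not detected.

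The split among controls ran through most members in WT and through fewer in TLR3-KO. In WT, controls 1 and 2 were both above controls 3 and 4 in 9 of the 10 members, with Il10 as the exception, beside 23.3% of all genes tested. In TLR3-KO this held for Tnf, Il1a, Il1r2 and Il18, beside 23% of genes, while Il6 and Il10 were both lower in controls 1 and 2 and the other 4 members overlapped. The 4 members Tnf, Il1a, Il1r2 and Il18 showed it in both genotypes, beside 15% of genes. The split was known before the members were taken, so these counts are a description. Marker sums of other cells differed along the same line. The epithelial sum was 364 and 365 CPM in WT controls 1 and 2 against 186 and 216 in 3 and 4. In TLR3-KO controls it was 720 and 637 against 268 and 284 CPM. The T cell sum ran the other way, at 192 and 210 against 366 and 304 CPM in WT. In TLR3-KO controls it was 337 and 266 against 467 and 355 CPM. Such sums give most weight to the markers with the highest counts, and single genes could differ from them. The surfactant gene Sftpc was at 9, 7.04, 5.07 and 5.95 CPM in WT controls but 2.39, 2.21, 10.6 and 12.1 CPM in TLR3-KO controls. Cd3e, a T cell gene, was at most 0.548 CPM in WT and 1.48 CPM in TLR3-KO controls. The part of other cells in the cytokine levels was not tested.

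The direction of Tnf after pneumonia depended on which controls were used. Averaged over both genotypes, its log2 fold change was -0.40 (SE 0.41, adjusted p = 0.684) with all controls, -1.09 with controls 1 and 2 only and 1.06 with controls 3 and 4 only. Il1a gave 0.35 (SE 0.35, adjusted p = 0.667), -0.27 and 1.52 in the same order. Il1b gave 0.68 (SE 0.35, adjusted p = 0.348), 0.29 and 1.45, and Il1r2 1.16, 0.70 and 1.91, so both kept their direction. Since the split follows from these data, a p within a subset of controls is not read as a call.

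**Figure D3:**
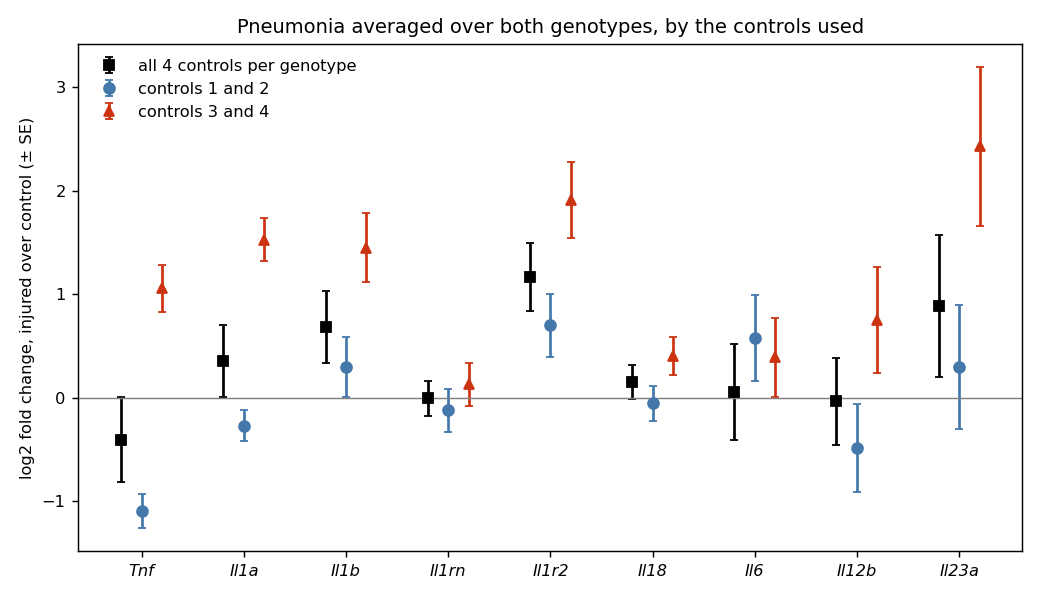
Log2 fold change of injured over control averaged over both genotypes, with bars of 1 SE, for 9 members fitted by edgeR with all controls (black squares), controls 1 and 2 (blue circles) or controls 3 and 4 (red triangles). For Tnf the circle lies at -1.09 and the triangle at 1.06, for Il1r2 all 3 values lie above 0, and for Il1rn all 3 lie close to 0.

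Within libraries, Tnf and Il1a kept close company. Pearson's r of log2(CPM + 0.5) was 0.889 over 16 libraries, 0.982 over the 8 controls and 0.79 over the 8 injured libraries. Il1b and Il1r2 had r = 0.816 over 16, 0.922 over the injured and 0.623 over the control libraries. Tnf and Il1b had r = 0.846 in controls and 0.167 in injured libraries. Il1rn had r = 0.72 with Il6 and 0.418 with Tnf over 16. These values describe libraries that share depth, groups and the split among controls.

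The balance between members was also read as a ratio of counts, a measure chosen after the values were seen and given with no test. Il1rn counts per Il1b count were 9.74, 9.11, 9.82 and 9.72 in TLR3-KO controls and 3.84, 5.65, 5.69 and 4.78 in TLR3-KO injured libraries. The TLR3-KO injured libraries thus held less antagonist mRNA for each Il1b read. In WT the ratio was 6.84, 7.23, 35.6 and 17.7 in controls and 11.4, 9.66, 5.95 and 6.97 in injured libraries, which overlapped. Tnf counts per Il1a count were 1.29, 0.878, 0.828 and 1.12 in TLR3-KO controls against 0.657, 0.589, 0.534 and 0.586 in TLR3-KO injured libraries, without overlap. In WT they were 1.15, 1.1, 0.781 and 0.729 in controls against 0.615, 0.658, 0.587 and 0.874 in injured libraries, with 1 injured library above 2 of the controls. Other ratios overlapped in both genotypes. Il1rn counts per Il1a count were 2.89, 2.53, 8.59 and 6.52 in TLR3-KO controls against 2.73, 2.23, 2.3 and 3.17 in TLR3-KO injured libraries. Il1a and Il1r2 counts per Il1b count overlapped as well.

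**Figure D4:**
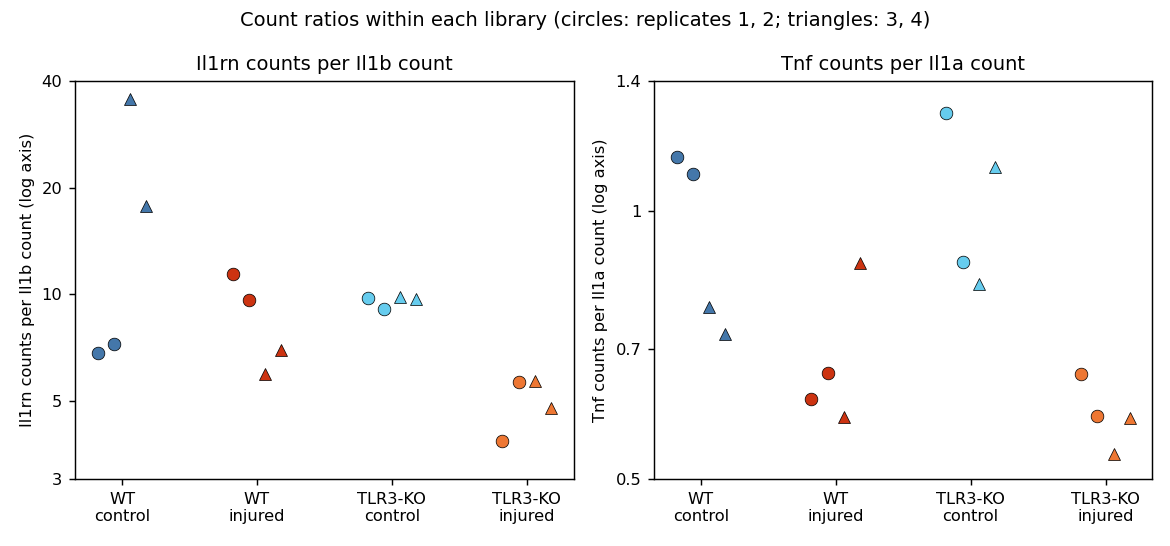
Il1rn counts per Il1b count (left) and Tnf counts per Il1a count (right), both on log axes, with 1 point per library in the 4 groups (circles for replicates 1 and 2, triangles for 3 and 4). TLR3-KO controls lie between 9.11 and 9.82 on the left, above TLR3-KO injured libraries at 3.84 to 5.69, and WT controls 3 and 4 stand apart at 35.6 and 17.7.

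The genes most like Tnf over the 16 libraries, among 8837 tested genes with a mean of at least 5 CPM outside the set, were Top1 (r = 0.965), Nfkb1 (0.955), Psd (0.945), Phldb1 (0.941) and Rab20 (0.937). Top1 encodes a DNA topoisomerase and Nfkb1 an NF-kB subunit. Over the 8 injured libraries alone r was 0.807 for Top1 and 0.462 for Nfkb1. For Il1b they were Marcksl1 (0.929), Ier3 (0.92), Cxcl10 (0.903), Socs3 (0.897) and AA467197 (0.892), with 0.925, 0.919, 0.76, 0.819 and 0.869 over injured libraries. Cxcl10 encodes a chemokine for T cells and Socs3 an inhibitor of cytokine receptor signalling. For Il1rn they were M6pr (0.899), Slc31a2 (0.857), Clec4e (0.849), B3gnt2 (0.836) and Fas (0.836), with 0.98, 0.955, 0.909, 0.835 and 0.895 over injured libraries. M6pr encodes a mannose 6-phosphate receptor and Clec4e the C-type lectin Mincle.

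Genes around the members were read from 7 lists, and no list held more than 1 call in any comparison. Among all genes tested, 1.54% were called in TLR3-KO pneumonia, 2.34% in the averaged response, 0.699% between control genotypes and 0.618% between injured genotypes. The list counts were not tested against these shares. With so few calls, they are not read as a result about the lists. Of 14 IL-1 family receptors and regulators, 1 rose in TLR3-KO pneumonia, 1 rose in the averaged pneumonia response and none fell in any comparison. The median log2 fold change of the list was 0.243 for the averaged response, against -0.00133 for all genes tested. Il18rap, which encodes the accessory chain of the IL-18 receptor, rose in the averaged response by 2.24 on the log2 scale (SE 0.47, adjusted p = 0.0219, edgeR). It was counted at 0.268, 0.48, 0.246 and 1.62 CPM in the WT controls and at 0.776, 2.68, 6.99 and 1.08 CPM in WT injured libraries, which overlapped. In TLR3-KO it was counted at 0.45, 0.316, 0.569 and 0.437 CPM in controls and at 2.45, 1.29, 2.16 and 3.96 CPM in injured libraries, without overlap. The adjusted p was 0.0505 without TLR3-KO injured 4. It was 0.158 with control 4 as the only TLR3-KO control. Its highest library, WT injured 3, is also the one with the highest neutrophil marker sum, and the part of other cells was not tested.

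Traf6, which encodes the ubiquitin ligase downstream of IL-1 and Toll-like receptors, rose in TLR3-KO pneumonia by 0.68 on the log2 scale (SE 0.16, adjusted p = 0.0489, edgeR). The level was 20.5, 30, 22.6 and 23.6 CPM in the TLR3-KO controls and 37.2, 42.8, 46.6 and 35.7 CPM in TLR3-KO injured libraries, without overlap. The call sits at the threshold and was lost in 14 of 19 alternatives, with adjusted p from 0.0502 with robust estimation to 0.188 without TLR3-KO injured 3. It was lost without TLR3-KO control 1, 3 or 4 and without any 1 of the 4 TLR3-KO injured libraries, at 0.0991, 0.127, 0.12, 0.0899, 0.149, 0.188 and 0.0643. In WT its log2 fold change was -0.01 (adjusted p = 0.985), and the difference of the responses had an adjusted p of 0.235. WT controls held 26.5 to 38.7 CPM and WT injured libraries 29.8 to 42.7 CPM. The log2 difference of TLR3-KO from WT was -0.53 in controls (adjusted p = 0.101) and 0.16 in injured libraries (adjusted p = 0.623) by edgeR. A low level in the TLR3-KO controls, most of which hold Xist, and a rise after pneumonia cannot be told apart here.

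Of 12 genes of IL-1 and IL-18 processing, 1 was lower in TLR3-KO than in WT injured libraries and none passed the test in the pneumonia comparisons or between controls. That gene was Casp1, which encodes caspase-1. It was counted at 92, 112, 108 and 89.9 CPM in WT injured and at 68.1, 65.2, 63.1 and 71.8 CPM in TLR3-KO injured libraries, without overlap. The log2 difference was -0.61 (SE 0.10, adjusted p = 0.0171, edgeR). It fell short with the replicate block (adjusted p = 0.052) and without WT injured 2 or 3 or TLR3-KO injured 1, 2 or 3, where the adjusted p was 0.0587, 0.0748, 0.056, 0.0724 and 0.0821. Between controls its log2 difference was -0.31 (adjusted p = 0.135), and the list's median between injured genotypes was -0.144, against -0.0105 for all genes.

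Of 13 genes of TNF receptors, shedding and signalling, 1 was lower in TLR3-KO than in WT controls and none passed elsewhere. That gene was Adam17, the sheddase of TNF, counted at 612, 573, 382 and 449 CPM in the WT controls and at 259, 345, 216 and 262 CPM in the TLR3-KO controls, without overlap. The log2 difference was -0.98 (SE 0.20, adjusted p = 0.039, edgeR). In injured libraries Adam17 was counted at 231 to 397 CPM in WT and 316 to 368 CPM in TLR3-KO, a log2 difference of -0.05 (adjusted p = 0.926). The call was lost in 9 alternatives: the replicate block (adjusted p = 0.0562), a fit of the 2 control groups alone (0.206), controls 3 and 4 only (0.141), control 4 as the only TLR3-KO control (0.234), and without WT control 1 or 2 (0.137 for each) or TLR3-KO control 1, 3 or 4 (0.102, 0.0914 and 0.0767). The list's median log2 difference between controls was -0.357, against 0.0389 for all genes. At an unadjusted p under 0.05 by edgeR, 7 of the 13 differed between control genotypes, beside 19.9% of all genes, and 1 or 3 in each other comparison. The list was not tested as a set.

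Of 13 other macrophage cytokines that could be tested, of 25 listed, 1 rose in the averaged pneumonia response and none passed elsewhere. It was Il16, a chemoattractant for CD4+ cells, with a log2 fold change of 0.56 (SE 0.13, adjusted p = 0.0324, edgeR). Its values were 22.9, 22, 36.3 and 53 CPM in the WT controls, 51.2, 46.9, 52.2 and 51.5 in WT injured, 39.4, 42.1, 40 and 47.4 in TLR3-KO controls and 59.8, 73.8, 71.6 and 63.8 CPM in TLR3-KO injured libraries. The call was lost with control 4 as the only TLR3-KO control (adjusted p = 0.177) and without WT control 1 or 2, WT injured 3 or 4, TLR3-KO control 1, 3 or 4, or any 1 TLR3-KO injured library, with adjusted p between 0.0503 and 0.0767. The list's median was 0.482 for the averaged response, against -0.00133 for all genes. At an unadjusted p under 0.05 by edgeR, the list had 8 of 13 genes in the averaged response, 6 in WT and 4 in TLR3-KO pneumonia. The matching shares of all genes were 16.4%, 10.7% and 24%. This list, too, was not tested as a set.

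The remaining 3 lists held no call in any comparison: 0 of 16 tested genes of the IL-6, IL-10, IL-12 and IL-23 axis, 0 of 13 genes of cytokine mRNA decay and 0 of 24 NF-kB targets outside the cytokines (edgeR). At an unadjusted p under 0.05 the first list had 6 genes in TLR3-KO pneumonia and 6 in the averaged response, the second 1 and 0, and the third 1 and 0, beside 24% and 16.4% of all genes. Between control genotypes the counts were 6, 2 and 7, beside 19.9% of all genes, and the median log2 difference of the NF-kB targets was -0.418, against 0.0389 for all genes. The most abundant genes of the first were Jak1 and Stat3, a kinase and a transcription factor of cytokine receptors. Jak1 had a log2 difference of -0.63 (adjusted p = 0.0952) and Stat3 of -0.22 (adjusted p = 0.479) between control genotypes. Mapkapk2, the kinase that stabilises Tnf mRNA, was counted at 1446, 1345, 574 and 674 CPM in the WT controls and at 936, 929, 390 and 480 CPM in the TLR3-KO controls, high and low in the same replicates as Tnf. In injured libraries it lay between 789 and 984 CPM. Zfp36l2, of the same list, lay between 381 and 620 CPM in all 16 libraries. The NF-kB targets with the highest level were Clec4e (443 to 1336 CPM over all libraries) and Plaur (457 to 1048 CPM), and the list's median log2 fold change was -0.335 in WT pneumonia and 0.0113 in TLR3-KO pneumonia, against 0.00972 and -0.0133 for all genes.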

How the data were processed

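Macrophage RNA from lavage fluid was sequenced as paired reads of TruSeq mRNA libraries, per the labels' protocols. The submitters' processing notes name FastQC 0.11.3, TopHat2 2.0.13, Bowtie2 2.2.1, Cufflinks, Cuffdiff 2.1.1 and mm10. The table deposited by the authors holds whole-number counts per gene symbol, named for HTSeq; no version, strand setting or annotation was given in the sources used here, and reads of overlapping genes may be shared. Columns were matched to the 16 samples by their labels.

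CPM values use raw library totals. Genes were kept by filterByExpr (minimum count 10), normalised with TMM factors of 0.896 to 1.07, and edgeR 4.0.16 under R 4.3.3 was used for the quasi-likelihood test with 1 coefficient per group, Benjamini-Hochberg adjustment over 12455 genes and a threshold of 0.05. SE is the log2 fold change divided by the square root of F. The fit was tested on simulated data, drawn for each gene separately and without a split among controls, so that test does not cover the split seen here. Alternatives were RLE factors, DESeq2 1.42.0, limma 3.58.1 voom, other filters, fits of 2 groups, a replicate block, subsets of the controls, each library left out, and robust estimation, added after seeing the data. Between control genotypes, same-number correlations of departures from the group mean were 0.6 to 0.63, and 6 of 8 libraries were closest to their own number. Both genotypes share the split among controls, so pairing by number cannot be told apart from it. The count of genes called there was 87, and 31 with the replicate block, and no member was called in either. Within groups, no library copied another (chi-square per degree of freedom 8.04 to 303), and pairs across groups were not compared.

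The members, lists, marker sets, control subsets and tests were chosen with earlier results of these data known. Named were all 10 members, the called genes of each list or else its 2 most abundant, and the 5 genes most correlated with Tnf, Il1b and Il1rn. Positions and exon lengths came from GENCODE M21, matched by symbol. Other steps used scipy 1.17.1, numpy 2.4.6, pandas 2.3.3 and matplotlib 3.10.9 under python 3.11.15.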

Additional observations from a re-analysis of the deposited data

Results flagged for a closer look

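Il1b in WT injured 3, at 213.8 CPM, stood apart from the other 3 libraries of its group: its gap to the nearest was 0.829 of the group's range, just above Dixon's critical value of 0.829 for 4 samples before rounding. That library also had the highest neutrophil marker sum, at 294 CPM. Il18 in WT injured 1, at 386.6 CPM, stood apart in the same way, with a gap of 0.894 of the range. Of 36 groups of 4 libraries examined (9 members in 4 groups), 2 were marked like this, and chance marks about 1 in 20.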

How the results depend on the processing

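No member was called in 116 of 124 counts of members called under the alternatives. With controls 1 and 2 only, 1 member was called in WT pneumonia (Tnf), 1 between control genotypes (Il6) and 1 in the averaged response (Tnf). The same fits called 1646, 239 and 1537 genes in all. With controls 3 and 4 only, 1 was called in WT (Il1a), 2 in TLR3-KO (Il1a and Il1r2) and 5 in the averaged response (Tnf, Il1a, Il1b, Il1r2 and Il23a). These fits called 64, 4113 and 3482 genes in all, so the counts of members are not read as a result about the cytokines. DESeq2 called 1 in the averaged response, and leaving out 1 library at a time gave 0 to 1 there. Among the members' log2 fold changes given in the text, these reversed. With controls 3 and 4 only, Tnf was 1.32 in WT, 0.79 in TLR3-KO and 1.06 averaged, Il1rn 0.16 in WT and Il6 0.31 between control genotypes. With controls 1 and 2 only, Il1a was -0.58 in WT and -0.27 averaged, Il1b -0.41 in WT and Il1rn -0.0035 in TLR3-KO. With control 4 as the only TLR3-KO control, Tnf was 0.31 and Il1rn -0.082 in TLR3-KO. With limma voom Tnf was 0.028 in TLR3-KO and 0.013 averaged. With the replicate block Tnf was 0.065 in TLR3-KO. Leaving out 1 library at a time, Tnf in TLR3-KO ranged from -0.57 to 0.26 (above 0 without TLR3-KO control 1), Il1a in WT from -0.19 to 0.55, Il1b in WT from -0.10 to 0.68, and Il1rn from -0.21 to 0.12 in WT and from -0.13 to 0.18 in TLR3-KO. Outside the members, Traf6 in WT pneumonia ranged from -0.24 to 0.26 over the alternatives, and Adam17 between injured genotypes from -0.19 to 0.016. The cause of these reversals was not tested.

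Genes called over the whole table varied more: 2, 192, 87, 77, 0 and 292 in the 6 comparisons by edgeR, against 170, 1038, 772, 444, 98 and 775 by DESeq2 and 0, 136, 82, 75, 0 and 282 with robust estimation. The replicate block gave 3, 11, 31, 21, 0 and 221, and changed no call of a member. Outside the control genotypes, same-number correlations were -0.48 to 0.39, with 6 of 8 libraries closest to their own number in TLR3-KO pneumonia and 0 of 8 in the other pairs. Il6, Il12b, Il23a and Il10 rest on few reads, and 4 libraries a group limit the precision of all members.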
